A study of Mus musculus with 4 samples.

Results

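The response described here is the change in left ventricular gene expression after transverse aortic constriction (TAC), averaged over mice of the wild type (WT) and mice that lack STIM1 (STIM1KO). It uses 4 of the 4 arrays of the series, taken by their titles: both TAC arrays against both sham arrays. The animals were male C57BL/6 mice, operated at 10 weeks of age and sampled 4 weeks later, at 14 weeks. In TAC the aortic arch is tied down around a wire of 0.3 mm that is then withdrawn, and sham mice had the operation without the ligature. Each genotype had a sham group and a TAC group, and each of the 4 groups had 1 array. Per the labels, the average heart weight to body weight ratio (unit not given) was 4.1 after sham and 6.7 after TAC in WT, and 4.5 and 4.9 in STIM1KO. The 2 genotypes averaged here therefore carried unequal growth of the heart after the same operation. The allele behind the STIM1KO label, the cells it was deleted in, and whether an array held RNA of 1 mouse or of a pool are not stated in these sources.

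Narrowing the aorta raises the pressure against which the left ventricle ejects blood, and the myocytes of the wall thicken. In rodents this growth is known for a return of genes of the fetal heart, among them the natriuretic peptides Nppa and Nppb, beta myosin heavy chain (Myh7) and skeletal alpha-actin (Acta1), and often for a fall of alpha myosin heavy chain (Myh6) and of the calcium pump of the sarcoplasmic reticulum (Atp2a2). Matrix genes such as Col1a1, Col3a1 and Postn mark the accompanying fibrosis, and Rcan1 is a target of calcineurin. STIM1 senses calcium in the reticulum and opens Orai channels of the plasma membrane.

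Stim1 was dimmer in the arrays labelled STIM1KO, which read 20.7 after sham and 13.8 after TAC, than in WT, where it read 41.6 after sham and 33.9 after TAC. The differences between genotypes were -1 (log2) after sham and -1.30 after TAC, and this probe lay below the brightness filter in use. Whether it lies in the deleted part is not known. The 4 arrays had deposited medians close to 20 intensity units and values for 21115 to 21782 of 23473 probes. Of 17 cardiomyocyte markers 15 passed the filter, and their summed intensity was 335200 and 362219 on the sham arrays and 349371 and 369253 on the TAC arrays. Tissue RNA was measured, so fewer cells of a type and less RNA per cell cannot be told apart.

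For each gene the difference between TAC and sham was taken on the log2 scale within each genotype, the response is the mean of these 2 differences, and the absolute difference between them, called the gap, is its spread. The 2 differences share no array. Over 7020 genes the SD of the difference was 0.25 in WT and 0.42 in STIM1KO, and the median gap was 0.26. A gene counts as shared when it differed by at least 1.5-fold (0.58 on the log2 scale) in the same direction in both genotypes.

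The shared response was small. Of 7020 genes, 29 were higher after TAC in both genotypes (0.413%) and 23 were lower in both (0.328%), together 52 (0.741%), while 11 passed 1.5-fold in opposite directions (0.157%). Acta1 was the lower gene with the largest size in the weaker of its 2 differences, and Art3, which encodes a membrane-anchored member of the ADP-ribosyltransferase family, was the higher one. Within WT alone 109 genes were higher (1.55%) and 91 lower (1.3%), and within STIM1KO 513 were higher (7.31%) and 499 lower (7.11%). The 29 shared higher genes were 26.6% of the higher genes of WT and 5.65% of those of STIM1KO, and the 23 shared lower genes were 25.3% and 4.61% of the lower ones. With smaller differences included, 2007 genes (28.6%) lay above 0 in both genotypes, 2227 (31.7%) below 0 in both and 2765 (39.4%) on opposite sides. With values as deposited, without quantile normalization, 55 genes were shared, 39 higher and 16 lower, and 45 of them were among the 52.

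**Figure D1:**
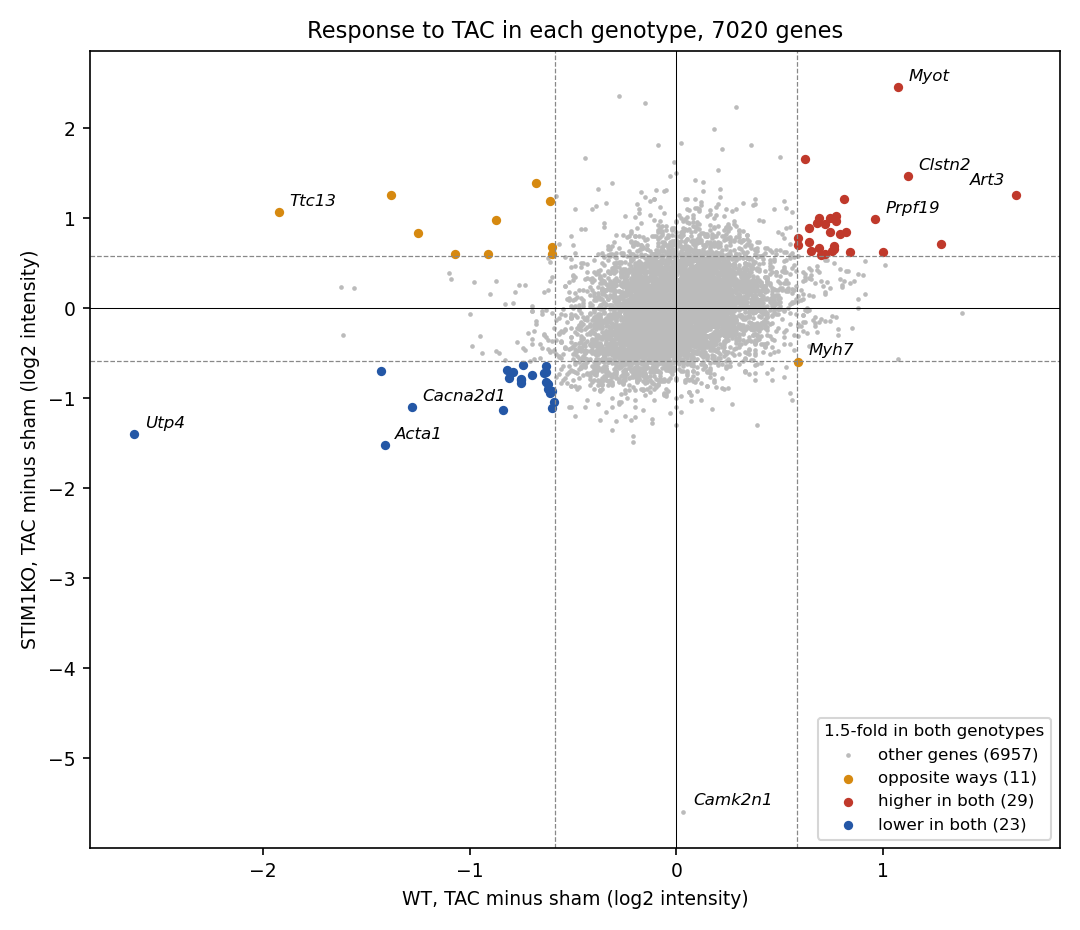
Difference between TAC and sham (log2 intensity) in WT on the horizontal axis and in STIM1KO on the vertical axis, 1 point per gene for 7020 genes, with dashed lines at 1.5-fold. The 29 genes higher in both genotypes lie at the upper right, the 23 lower in both at the lower left and the 11 that went opposite ways in the other corners, and Camk2n1 at the bottom differed in STIM1KO and not in WT.

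Acta1, the actin of skeletal muscle that the fetal heart also uses, fell after TAC in both genotypes. In WT its intensity was 1881 after sham and 706 after TAC, and in STIM1KO it was 1973 after sham and 688 after TAC. Both TAC arrays were low and both sham arrays high, and the arrays of 1 operation lay close to each other in both genotypes. The differences were -1.41 in WT and -1.52 in STIM1KO, a mean of -1.47 (gap 0.11), or 2.77-fold lower after TAC. In a limma fit of operation and genotype over all 7020 genes the standard error was 0.19 and the adjusted p = 8.3e-12. The direction is opposite to the one the background above gives for this gene in the loaded heart.

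The promoter of Acta1 is shown because this gene had the smallest gap among the shared genes with a mean past 2-fold, and that of Clstn2 because it came next to Art3 among the higher genes. Both are the 250 bases before the annotated start in RefSeq on GRCm38.p6, written 5′ to 3′ on the gene's strand, with matched motifs in capitals. Acta1 lies on the minus strand at chr8:123894776-123895025 and Clstn2 on the minus strand at chr9:98033168-98033417. In Acta1 the capitals mark a CArG box, the site that serum response factor binds, 73 to 64 bases before the annotated start. They also mark CATTCC, the core of the site TEAD factors bind, 46 to 41 bases before that start. TATAAA, the letters of a TATA box, lies 7 to 2 bases before it, and whether it serves this start was not tested. In Clstn2 the capitals mark TGACGTCA, the full site of the cyclic AMP response element, 85 to 78 bases before the annotated start.
Acta1: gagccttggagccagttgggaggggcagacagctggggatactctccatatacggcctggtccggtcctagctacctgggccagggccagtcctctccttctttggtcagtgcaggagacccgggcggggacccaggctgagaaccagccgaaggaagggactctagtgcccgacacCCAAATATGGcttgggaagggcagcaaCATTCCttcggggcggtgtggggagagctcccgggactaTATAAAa
Clstn2: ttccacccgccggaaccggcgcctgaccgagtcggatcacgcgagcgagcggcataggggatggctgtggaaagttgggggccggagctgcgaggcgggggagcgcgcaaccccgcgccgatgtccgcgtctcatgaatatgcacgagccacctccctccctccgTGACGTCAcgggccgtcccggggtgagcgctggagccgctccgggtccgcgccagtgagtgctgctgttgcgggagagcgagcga
These matches are letters in a window and are no evidence of binding. Searched on both strands of the same 250 bases, a CArG box was present in 1.62% of 27025 genes with a promoter in the table, CATTCC in 14.4%, TATAAA in 14.3% and TGACGTCA in 1.77%. The table held 24 of the 29 higher genes and 17 of the 23 lower ones. A CArG box was in 0 of the 24 and in 1 of the 17, which was Acta1. TATAAA was in 1 of the 24, Art3, and in 4 of the 17, Acta1, Ndrg4, Gadd45b and Mrps24. CATTCC was in 5 of the 24 and in Acta1 alone among the 17, and TGACGTCA was in Clstn2 and, among the lower genes, in Golph3. The MEF2 site, present in 3.42% of all promoters, was in 0 of the 24 and 0 of the 17, and GATAAG, the core that GATA factors bind, present in 7.6%, was in 2 and in 1. The motifs do not overlap in the sequences printed.

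Art3 rose from 578 to 1805 in WT and from 1060 to 2540 in STIM1KO, with differences of 1.64 and 1.26 and a mean of 1.45 (SE 0.19, limma adjusted p = 1.0e-11). Both TAC arrays lay above both sham arrays, and the WT arrays lay below the STIM1KO arrays of the same operation. Myot, which encodes myotilin, an anchor of actin filaments at the Z-disc, rose from 43.8 to 92.1 in WT and from 55.9 to 307 in STIM1KO. Its differences of 1.07 and 2.46 gave the largest mean among the higher shared genes, 1.76, with the widest gap among the shared genes, 1.38 (limma adjusted p = 9.0e-16), so the larger part of the mean came from STIM1KO. Svil, which encodes supervillin, a protein that ties actin and myosin to the membrane, rose from 158 to 384 in WT and from 282 to 466 in STIM1KO (differences of 1.28 and 0.72, gap 0.56, limma adjusted p = 9.8e-05). Here the larger difference was in WT, and both TAC arrays again lay above both sham arrays. Clstn2, a calsyntenin of the cadherin superfamily, read 15.1 in WT sham and 32.9 in WT TAC, and 27 in STIM1KO sham and 74.8 in STIM1KO TAC. Its mean was 1.29 (gap 0.35, limma adjusted p = 5.1e-06). Both its sham arrays lay below the filter level, an intensity of 29.3, so it passed the filter only through its TAC arrays. Itm2b, an integral membrane protein, rose from 773 to 1339 and from 1048 to 1868, by 0.79 and 0.83 (limma adjusted p = 0.0033). Its gap of 0.04 was far below the median gap of all genes.

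Prpf19, a ubiquitin ligase of the spliceosome, rose from 234 to 456 in WT and from 338 to 671 in STIM1KO. The differences of 0.96 and 0.99 were nearly equal (mean 0.98, gap 0.02, limma adjusted p = 1.4e-04), a 1.97-fold change, and both TAC arrays lay above both sham arrays. Id1, an inhibitor of basic helix-loop-helix factors that bone morphogenetic protein signalling induces, rose from 345 to 577 in WT and from 216 to 436 in STIM1KO (mean 0.87, gap 0.27, limma adjusted p = 0.0015). In contrast to the genes above, its WT arrays were the brighter ones after either operation. Xpa, a damage recognition factor of nucleotide excision repair, rose from 54.5 to 92.8 and from 60.2 to 118 (mean 0.87, limma adjusted p = 0.0031). Fam120b, described as a coactivator of the nuclear receptor PPAR-gamma, rose from 45.1 to 77.1 and from 59.6 to 122 (mean 0.90, limma adjusted p = 0.0018). In Xpa and in Fam120b both TAC arrays lay above both sham arrays and STIM1KO TAC was the highest.

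The other genes among the 12 with the largest shared increase were Bbs2, a subunit of the BBSome that carries cargo in cilia, Dnaaf5, an assembly factor of ciliary dynein arms, and Asrgl1, an asparaginase. Bbs2 rose from 21.5 to 37.9 in WT and from 34.5 to 62.2 in STIM1KO, by 0.82 and 0.85 (limma adjusted p = 0.016). Dnaaf5 rose from 22.2 to 38.8 and from 31.4 to 72.6, by 0.81 and 1.21 (limma adjusted p = 0.001). Asrgl1 rose from 42.5 to 71.1 and from 48.8 to 88.2, by 0.74 and 0.85 (limma adjusted p = 0.013). The WT sham arrays of Bbs2 and Dnaaf5 lay below the filter level, an intensity of 29.3, and their STIM1KO sham arrays lay close to it. Of the further higher genes, chosen after their values were seen, Dnajc15, a co-chaperone of the mitochondrial inner membrane, rose from 937 to 1459 in WT and from 1028 to 1908 in STIM1KO (mean 0.77, limma adjusted p = 0.0077). Eif2a, an initiation factor, had the smallest gap of the shared genes, 0.01, with differences of 0.65 and 0.64, and was no longer shared with median centring.

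In all 29 higher genes both TAC arrays lay above both sham arrays, against 1174 of all 7020 genes. The mean differences ran from 0.64 to 1.76 with a median of 0.81. STIM1KO TAC was the highest array in 26 of the 29 and WT sham the lowest in 27. The rule itself places the TAC arrays above their own sham arrays. The order between genotypes was not part of the rule, but its share over all genes was not counted, so no result is read from it.

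**Figure D2:**
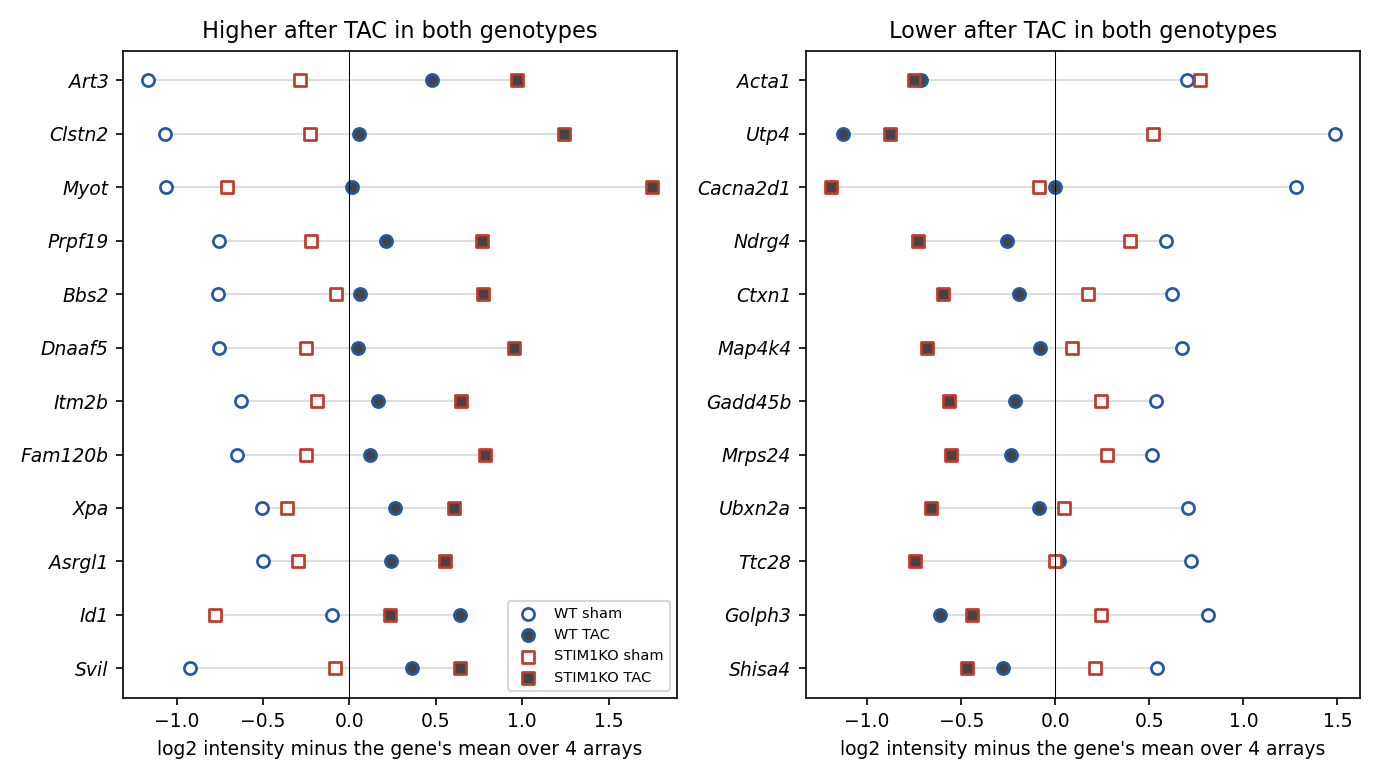
Log2 intensity on each of the 4 arrays, minus the gene's mean over the arrays, for the 12 genes higher (left) and the 12 lower (right) after TAC in both genotypes with the largest size in the weaker of the 2 differences, 1 row per gene; open symbols are sham, filled symbols TAC, circles WT and squares STIM1KO. In Acta1 the arrays of each operation lie nearly on top of each other, whereas in Myot the STIM1KO TAC array stands far to the right, and in Cacna2d1 and Ttc28 the WT TAC array lies just above the STIM1KO sham array.

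Cacna2d1, the alpha-2-delta subunit that brings voltage-gated calcium channels to the surface, fell from 93.2 to 38.4 in WT and from 36.1 to 16.8 in STIM1KO. The differences of -1.28 and -1.10 were close (mean -1.19, gap 0.18, limma adjusted p = 2.1e-05), but the arrays of the operations overlapped, because STIM1KO sham was already as dim as WT TAC. Camk2a, a calcium/calmodulin-dependent kinase of which the heart uses other isoforms more, fell from 43.3 to 28.3 and from 57.2 to 29.7 (mean -0.78, gap 0.33, limma adjusted p = 0.026), and was no longer shared with the offset before log2. Utp4, a part of the processome that makes the small ribosomal subunit, had the largest mean of the lower shared genes, with 112 and 18.3 in WT and 57.4 and 21.8 in STIM1KO. Its differences of -2.62 and -1.40 gave a mean of -2.01 with a gap of 1.22 (limma adjusted p = 3.1e-17). Both TAC arrays of Utp4 lay below the filter level, an intensity of 29.3, and far below both sham arrays. Utp4 therefore passed the filter only through its sham arrays. Mrps24, a protein of the small mitochondrial ribosomal subunit, fell from 2693 to 1601 and from 2274 to 1280, by 0.75 and 0.83 on the log2 scale (limma adjusted p = 0.0042).

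Ndrg4, a gene expressed in heart and brain, fell from 930 to 519 in WT and from 815 to 374 in STIM1KO (mean -0.98, gap 0.29, limma adjusted p = 1.0e-04). Map4k4, a kinase upstream of the stress kinase JNK, fell from 146 to 86.4 and from 97.4 to 56.9, with differences of -0.75 and -0.78 (limma adjusted p = 0.015). Gadd45b, a stress-inducible gene of the same branch of signalling, fell from 85 to 50.5 and from 69.2 to 39.6, with differences of -0.75 and -0.80 (limma adjusted p = 0.016). In these genes both TAC arrays lay below both sham arrays and STIM1KO TAC was the lowest. Golph3, a phosphoinositide-binding protein of the Golgi, fell from 147 to 54.8 in WT and from 99.4 to 61.7 in STIM1KO, and its difference of -1.43 in WT was larger than that of -0.69 in STIM1KO (limma adjusted p = 4.4e-05). Ubxn2a, a cofactor of the p97 ATPase, fell from 216 to 125 and from 137 to 83.8 (mean -0.75, limma adjusted p = 0.016). Ctxn1, which encodes cortexin, fell by 0.81 and 0.77 and Shisa4 by 0.82 and 0.68 (limma adjusted p = 0.019 for each). Ttc28 fell from 99.2 to 61.2 in WT and from 60.3 to 36 in STIM1KO (limma adjusted p = 0.03). It is the one shared gene with a further probe, a dim one with a mean intensity of 3.03, on which the differences were 0.02 and 0.41.

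Further lower genes, chosen after their values were seen, are Cct5, Hspa4, M6pr and Ctsf. Cct5, a subunit of the chaperonin that folds actin and tubulin, fell from 1253 to 828 in WT and from 1055 to 556 in STIM1KO (mean -0.76, limma adjusted p = 0.0095). Hspa4, a relative of Hsp70 that exchanges its nucleotide, fell from 821 to 533 and from 625 to 349 (mean -0.73, limma adjusted p = 0.016). M6pr, the receptor that carries lysosomal enzymes, fell by 0.60 and 1.11, and Ctsf, the lysosomal protease cathepsin F, fell by 0.59 and 1.04. Cct5, M6pr and Ctsf sat close to the 1.5-fold line in WT and were no longer shared with median centring or with values as deposited, and Hspa4 not with values as deposited.

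In 21 of the 23 lower genes both TAC arrays lay below both sham arrays, against 1304 of all 7020 genes, and Cacna2d1 and Ttc28 were the exceptions. The mean differences ran from -2.01 to -0.64 with a median of -0.76. STIM1KO TAC was the lowest array in 19 of the 23 and WT sham the highest in 20, again without a share over all genes to compare. Close to the threshold, Mad2l1bp, Nme2 and Olfr1443 were just inside with a weaker difference of 0.59 and Ctsf with -0.59, and Stk40 (0.58), Plagl2 (-0.58), Nae1 (-0.57) and Chmp6 (0.57) were just outside. Of the 52 shared genes, 32 (21 higher and 11 lower) were also shared with median centring, with values as deposited, with an offset added before log2 and with the mean over a gene's probes, Acta1, Art3, Myot, Clstn2, Utp4 and Prpf19 among them.

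The gaps of the shared genes ran from 0.01 to 1.38 with a median of 0.18, against a median of 0.26 over all 7020 genes. A gap under 0.30 was held by 38 of the 52, and by most of the 7020 genes too, as their median lies below it. Of the 52, 0 had a gap larger than the mean difference. A gap that is small next to the mean is partly built in, since a gene must pass 1.5-fold in both genotypes. No result is therefore read from these gaps. Over all 7020 genes the 90th percentile of the gap was 0.66.

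The limma fit of operation with genotype as a block called 113 genes at an adjusted p under 0.05 (1.61%), of which 61 were higher (0.869%) and 52 lower (0.741%). At an unadjusted p under 0.05 it called 958 (13.6%). By size of the mean alone, 107 genes were higher by at least 1.5-fold (1.52%) and 108 lower (1.54%). Of the 113 genes, 45 (39.8%) were shared, 26 of the 29 higher and 19 of the 23 lower ones. A further 61 had the same sign in both genotypes and reached 1.5-fold in 1 of them only, and 7 had opposite signs. The gap was larger than the mean in 43 of the 113, and so a call of this fit alone does not show a response in both genotypes. The fit estimated its prior degrees of freedom as infinite, beside 1 residual degree per gene, so each gene was given the standard error of genes of like intensity, 0.16 to 0.22, and its own gap had no weight. With values as deposited the fit called 15 genes, which were Mlf2 and the 14 shared genes Acta1, Art3, Cacna2d1, Clstn2, Dnaaf5, Fam120b, Fem1a, Golph3, Myot, Ndrg4, Prpf19, Svil, Utp4 and Xpa, so the limma calls given here for all other genes were lost. It called 0 genes when the genotype term was left out, where 285 genes had an unadjusted p under 0.05 and the lowest adjusted p was 0.1; an exact permutation within genotypes cannot go below p = 0.5.

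Camk2n1, an inhibitor of CaMKII, had the largest mean in the fit, -2.78. It read 90.5 after sham and 92.4 after TAC in WT, and 111 after sham and 2.31 after TAC in STIM1KO, so 1 array was low and the others alike. Its differences were 0.03 and -5.59 with a gap of 5.62, although the limma adjusted p was 1.0e-33. Nptn, a cell adhesion protein of the immunoglobulin superfamily, read 146 and 178 in WT and 78.1 and 370 in STIM1KO. Its differences were 0.29 and 2.24 (limma adjusted p = 8.9e-08), with STIM1KO sham the lowest array and STIM1KO TAC the highest. Mlf2, a homologue of a myeloid leukaemia factor, had differences of 0.50 and 1.68, and Fem1a, a substrate receptor of a cullin ubiquitin ligase, 0.62 and 1.66. Of the 10 genes with the largest mean among the 113, Acta1, Art3, Clstn2 and Cacna2d1 had gaps under 0.40.

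**Figure D3:**
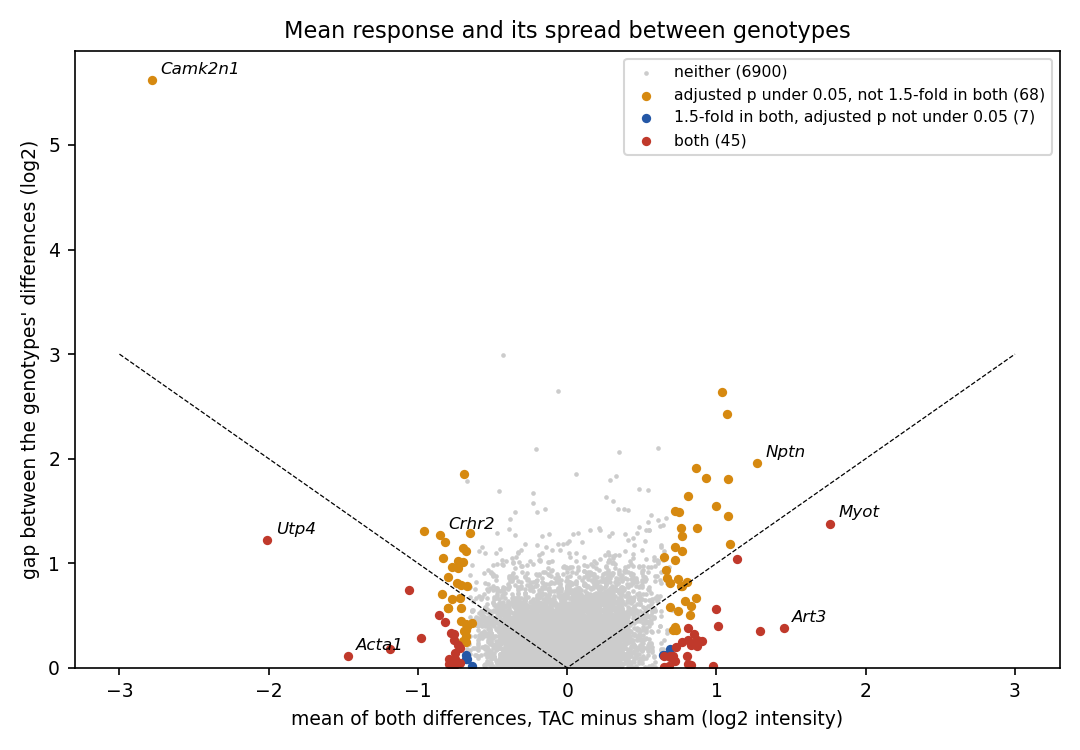
Mean of the 2 within-genotype differences (TAC minus sham, log2 intensity) on the horizontal axis and the gap between them on the vertical axis for 7020 genes; on the dashed lines the gap equals the mean. The 45 genes that are both shared and called by the limma fit lie below the lines, Acta1 and Art3 close to the base, and Camk2n1 has a gap of 5.62 at a mean of -2.78.

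Of the 10 markers of pressure overload, Acta1 alone passed 1.5-fold in the same direction in both genotypes. Nppa, atrial natriuretic peptide, read 1422 after sham and 1684 after TAC in WT, and 1249 and 1136 in STIM1KO. Nppb, B-type natriuretic peptide, read 2535 and 3778 in WT and 3045 and 2919 in STIM1KO. In both the WT TAC array was the highest of the 4 and the differences had opposite signs, 0.24 and -0.14 for Nppa and 0.58 and -0.06 for Nppb. Myh7 read 50.6 and 76.3 in WT and 70.2 and 46.5 in STIM1KO, with differences of 0.59 and -0.59, so its mean was 0 while each genotype passed 1.5-fold. Myh6, the main myosin of the adult mouse ventricle, read 15832 and 14927 in WT and 16894 and 12306 in STIM1KO, with differences of -0.08 and -0.46. Atp2a2 was lower by little in each genotype, with 22342 and 19436 in WT and 22702 and 18663 in STIM1KO (-0.20 and -0.28, limma adjusted p = 0.55). Both its TAC arrays lay below both sham arrays. For Rcan1 the differences were 0.07 and -0.40, for Col3a1 -0.22 and -0.04 and for Postn -0.26 and 0.06, with limma adjusted p-values of 0.76, 0.82 and 0.9. Col1a1, below the filter, read 35.5 and 31.1 in WT and 28.4 and 19.7 in STIM1KO, with differences of -0.19 and -0.53.

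**Figure D4:**
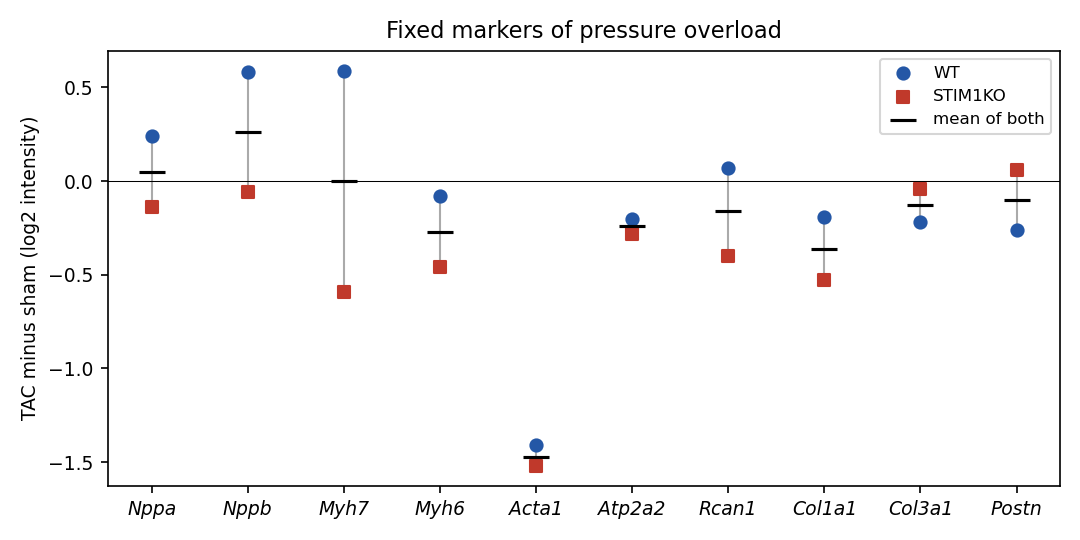
Difference between TAC and sham (log2 intensity) in WT (circles) and STIM1KO (squares) for 10 genes known to change under pressure overload, with a bar at the mean of both. Acta1 lies at -1.41 and -1.52, Atp2a2 at -0.20 and -0.28, and Nppa, Nppb, Myh7, Rcan1 and Postn have the 2 genotypes on opposite sides of 0.

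Beyond single genes, 40 lists of cardiac, metabolic, stress, matrix, signalling and cell type genes had at least 8 members passing the filter. Their medians of the mean difference lay between -0.15 and 0.13, against 0.003 for all 7020 genes. In 31 of the 40 no member was shared, in 9 at least 1 was, and 43 of the 52 shared genes were in no list. The medians had the same sign in both genotypes in 13 of the 40 lists. Among all 7020 genes 28.6% lay above 0 in both genotypes, 31.7% below 0 in both and 39.4% on opposite sides. Limma called 1.61% of them and 0.741% were shared. The counts of each list below stand beside these shares, and no list was tested as a set.

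Of the contractile genes, 14 thin filament genes passed, of which 3 lay above 0 in both genotypes, 7 below 0 in both and 4 on opposite sides, with a median of -0.10. Acta1 was the one member called by limma, while Tnni3, cardiac troponin I, had differences of 0.32 and 0.26 and Tnnt2, cardiac troponin T, 0.20 and 0.59. Of 19 Z-disc and costamere genes, 8 were above 0 in both and 3 below, with a median of 0.05, and Myot and Svil rose. Ankrd1, a stretch-responsive protein of the titin filament, was lower in both, with 8246 and 6415 in WT and 7483 and 4267 in STIM1KO (-0.36 and -0.81, limma adjusted p = 0.053). Of 13 thick filament and M-band genes 5 were above and 4 below 0 in both. Mybpc3, cardiac myosin-binding protein C, had even differences of -0.57 and -0.54 just under the threshold (limma adjusted p = 0.08), and Myl3, the essential light chain, had 0.86 and 0.31 (limma adjusted p = 0.071). The sarcomere thus held shared changes in both directions.

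Of 18 genes of calcium handling at the sarcoplasmic reticulum and plasma membrane, 4 were above 0 in both genotypes, 7 below 0 in both and 7 on opposite sides, and the median was -0.15, with 0 in WT and -0.28 in STIM1KO. Cacna2d1 was the one member called by limma. Trdn, triadin of the release complex, had differences of -0.36 and -0.49. Of 8 genes of store-operated calcium entry that passed, 4 were above 0 in both and 2 below, with a median of 0.07 that turned negative without the filter on dim genes. Cracr2a, a calcium-binding regulator of the Orai1 and STIM1 complex, read 27.6 and 46.8 in WT and 44.7 and 70.4 in STIM1KO (0.76 and 0.66, limma adjusted p = 0.048). That call was lost with median centring and with values as deposited. Orai1 itself had differences of 0.32 and 0.11 (limma adjusted p = 0.68). Of 13 calcineurin and CaMKII genes 6 were above and 4 below 0 in both, with a median of -0.10, and Rcan2, a relative of Rcan1, had -0.56 and -0.37 beside Camk2a.

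Of 190 genes of energy metabolism that passed, 0 were shared and limma called 0 at an adjusted p under 0.05, with 31 (16.3%) at an unadjusted p under 0.05. Over all 7020 genes the shares were 0.741%, 1.61% and 13.6%. Of 32 genes of fatty acid uptake and oxidation, 10 were above and 11 below 0 in both genotypes, with a median of -0.09. Acsl1, which activates long-chain fatty acids, was the nearest to the threshold with -0.58 and -0.51 (limma adjusted p = 0.13). Of 40 genes of respiratory complexes II to V, 15 were above and 11 below (median 0.08), and the members furthest from 0 in both were lower: Atp5g3, a subunit of the ATP synthase ring, had -0.46 and -0.47 and Uqcrc1, of complex III, -0.41 and -0.64. Of 35 genes of complex I, 8 were above and 12 below, and of 30 genes of pyruvate dehydrogenase and the tricarboxylic acid cycle 8 and 10. Of 29 genes of glucose uptake and glycolysis 9 were above and 10 below. These counts stand beside 28.6% above and 31.7% below among all genes tested.

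Among stress and protein turnover genes limma called 1 of 35 antioxidant, 2 of 27 autophagy, 1 of 32 proteasome and 1 of 22 unfolded protein genes, against 1.61% of all genes. Of 35 antioxidant genes 11 were above and 10 below 0 in both genotypes, with a median of 0.13. Txnip, which binds thioredoxin and restrains glucose uptake, rose from 1030 to 1481 in WT and from 736 to 1684 in STIM1KO (0.52 and 1.19, limma adjusted p = 0.0013), and Txn2, mitochondrial thioredoxin, had differences of 0.72 and 0.54 (limma adjusted p = 0.053). Of 27 autophagy and lysosome genes 7 were above and 7 below. Ulk1, the kinase that starts autophagy, rose from 110 to 177 and from 117 to 186 (0.69 and 0.67, limma adjusted p = 0.036), an even change whose limma call was lost with median centring and with values as deposited. Wipi1, a phosphoinositide-binding autophagy protein, had differences of -0.37 and -1.24 (limma adjusted p = 0.026), and Rb1cc1, a partner of Ulk1 in the same kinase complex that was singled out after its values were seen, had -0.63 and -0.64 (limma adjusted p = 0.094). Of 32 proteasome and ubiquitin ligase genes 9 were above and 7 below, and the call of Psmb6, a proteasome subunit, rested on STIM1KO, with 0.20 and 1.54. Of 22 genes of the unfolded protein response 6 were above and 3 below. Chac1, a glutathione-degrading enzyme of that response and its one called member, singled out after its values were seen, had opposite signs, -0.15 and 2.28 (limma adjusted p = 2.9e-04). Among 18 heat shock and immediate early genes, 6 lay above and 7 below.

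Matrix genes lay on both sides of 0, as did all genes tested, of which 28.6% were above 0 in both genotypes and 31.7% below. Limma called 1.61% of all genes. Of 14 collagen chains 2 were above 0 in both genotypes, 4 below 0 in both and 8 on opposite sides, with a median of -0.01 that turned positive with values as deposited. Col5a2 had differences of -0.41 and -0.35. Of 30 other matrix genes 5 were above and 11 below (median -0.05). Aspn, the small proteoglycan asporin, was called by limma with 0.21 and 1.33 (adjusted p = 0.015), and Emilin1, an elastic fibre protein, had even differences of -0.57 and -0.53 (limma adjusted p = 0.16). Of 21 genes of TGF-beta and bone morphogenetic protein signalling 4 were above and 5 below, and Id1 was the one called. Of 20 genes of angiogenesis and hypoxia 5 were above and 8 below, and limma called 2. Pgf, placental growth factor, had 0.29 and 1.10 (limma adjusted p = 0.047), and Vegfb, a vascular endothelial growth factor named after its values were seen, had opposite signs, -0.28 and 2.36 (limma adjusted p = 1.5e-05). Of 13 circadian genes 4 were above and 0 below 0 in both, with a median of 0.10 that turned negative with a filter at the 75th percentile.

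Of 24 fibroblast markers 21 passed, 3 above and 10 below 0 in both genotypes, with a median of -0.12, and Gsn, gelsolin, had differences of -0.45 and -0.53. Over all genes tested 28.6% were above and 31.7% below. The summed intensity of the 21 was 19229 and 16272 on the sham arrays of WT and STIM1KO and 16303 and 12678 on the TAC arrays. Gsn made up much of that sum, with 8111 and 6332 after sham and 5949 and 4373 after TAC. The mean log2 intensity of the 21 differed little, with 8.31 and 8.11 after sham and 8.22 and 8.03 after TAC. Of 25 endothelial markers 20 passed, 5 above and 7 below, with a median of -0.09 and sums of 26669 and 22531 after sham and 24422 and 21799 after TAC. Fabp4 made up much of these sums, with 13110 and 11840 after sham and 11992 and 11397 after TAC. The mean log2 intensity of the 20 was 8.53 and 8.17 after sham and 8.41 and 8.18 after TAC, so it did not fall in STIM1KO. Of 26 macrophage markers 18 passed, 6 above and 7 below, with sums of 4183 and 3559 after sham and 4187 and 4333 after TAC and medians of -0.05 in WT and 0.30 in STIM1KO. Csf1r, Ccr2, Cx3cr1 and Adgre1 of this list lay below the filter, were named after their values were seen and went different ways. Csf1r, the receptor of macrophage colony-stimulating factor, read 7.93 and 26.2 in WT and 11.7 and 73.8 in STIM1KO. Ccr2 was also higher after TAC in both, with 5.88 and 10.9 in WT and 7.3 and 13.1 in STIM1KO. Cx3cr1 was lower in both, with 18.3 and 16.6 in WT and 15.4 and 7.46 in STIM1KO. Adgre1 had opposite signs, with 11.5 and 12.6 in WT and 11 and 8.24 in STIM1KO. In the smooth muscle list 14 of 20 passed, 4 above and 3 below, with sums of 12606 and 14356 after sham and 12690 and 17038 after TAC. Their mean log2 intensity did not rise, with 7.98 and 8.03 after sham and 7.98 and 7.88 after TAC. The list shares Pln with the cardiomyocyte markers, and Pln had differences of 0.09 and 0.37. Acta2, smooth muscle actin, fell from 1002 to 699 in WT and from 1094 to 515 in STIM1KO (-0.52 and -1.09, limma adjusted p = 0.0046). Of 20 lymphocyte markers 1 passed the filter, Ighm, an immunoglobulin heavy chain, with differences of 0.48 and 0.65 (limma adjusted p = 0.12). Of 16 neutrophil and mast cell markers 1 passed, S100a9, a subunit of calprotectin, with -0.95 and -0.31 (limma adjusted p = 0.14). Of 21 skeletal muscle markers 7 passed, with sums of 8907 and 8213 after sham and 8586 and 6502 after TAC. Their medians were -0.07 in WT and 0.05 in STIM1KO. Ckm of this list is also a cardiomyocyte marker and had differences of 0.05 and -0.47, while Myh8, a skeletal myosin, had 0.05 and 0.05. Myh4, Tnnt3 and Myog were below the filter. The part of these cell types in the changes of Acta1, Myot and the other shared genes was not tested.

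**Figure D5:**
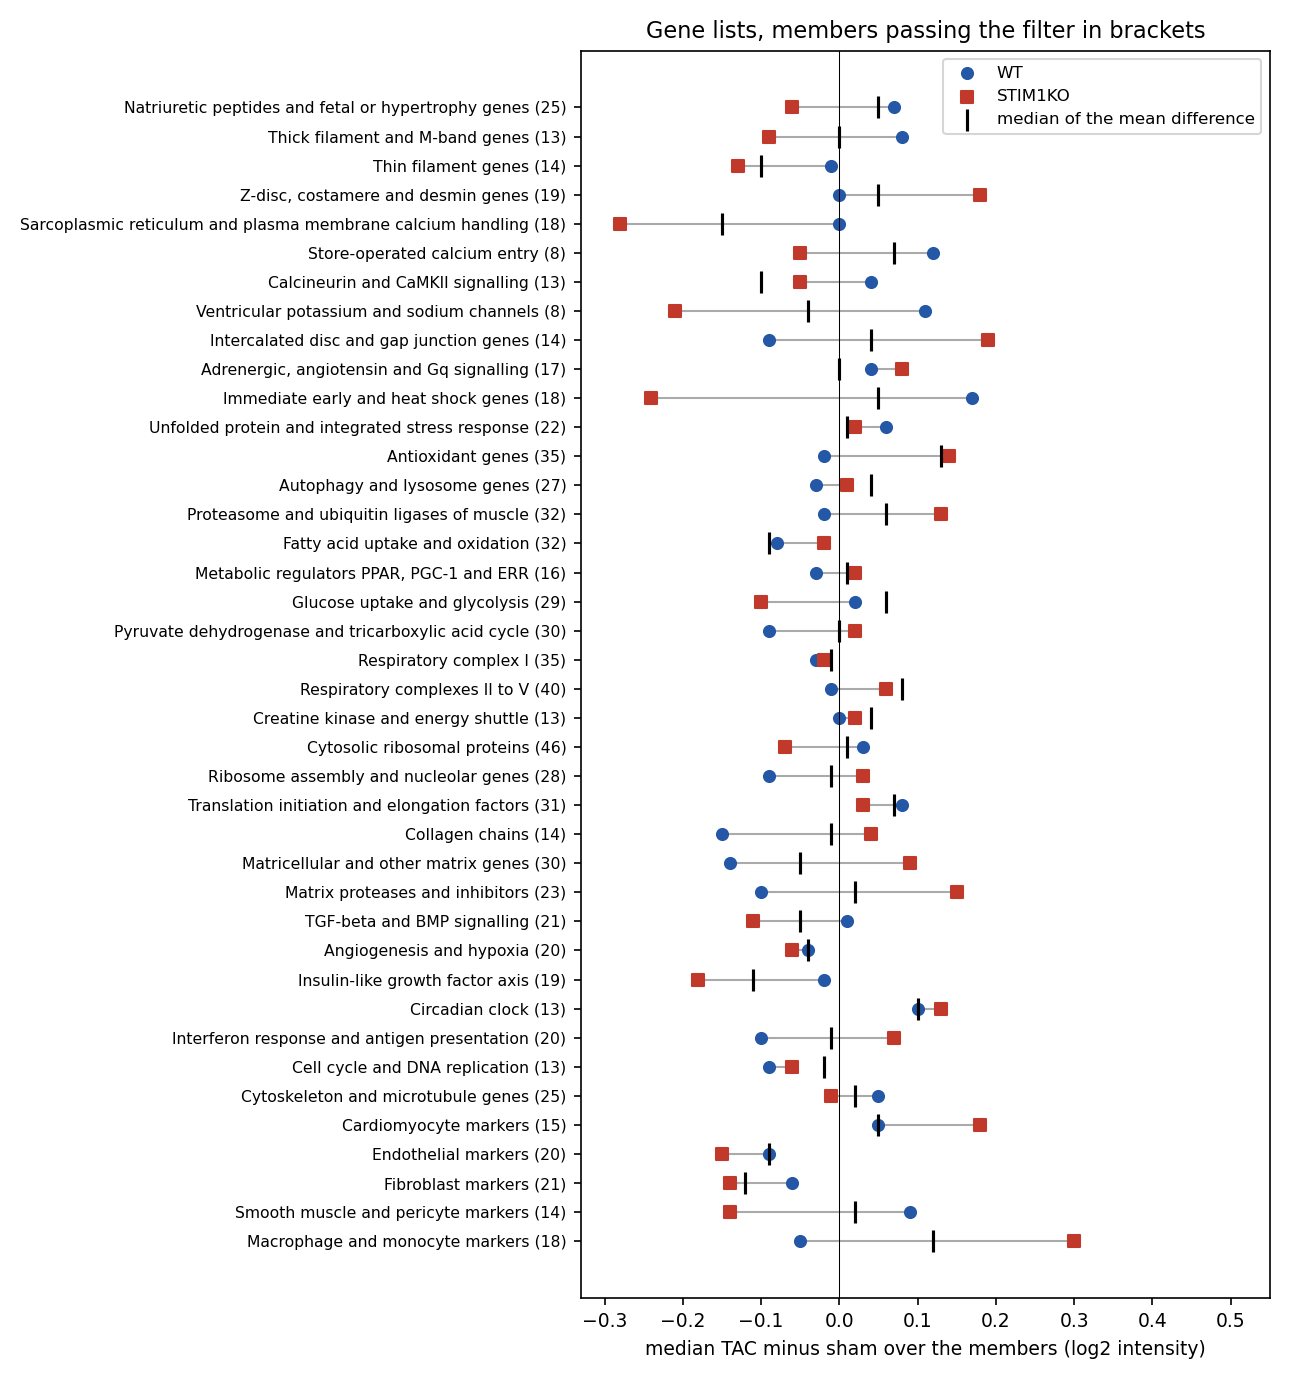
Median difference between TAC and sham (log2 intensity) over the members passing the filter of each of 40 gene lists, in WT (circles) and in STIM1KO (squares), with a bar at the median of the mean difference and the number of members in brackets. The bars lie between -0.15 and 0.13, and the 2 genotypes lie furthest apart for immediate early and heat shock genes (0.17 and -0.24) among the lists drawn.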

How the data were processed

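Left ventricular RNA was measured on 4 arrays, 1 per genotype and operation. The authors deposited linear intensity values, 1 for each probe on an array, and in these each array has a median of about 20 over its own valued probes. Amplified amino allyl RNA was coupled to Cy5, per the labels' protocols. How the scanner signal was corrected and why some cells are empty is not stated in these sources. The precision is limited by the number of arrays, 4. The limma p-values rest on the gap between the genotypes pooled over genes, since no group had a replicate array.

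Intensities of the 19607 probes valued on all 4 arrays were taken to log2 and quantile normalized, and printed intensities are these values on the linear scale. A gene symbol was paired with 16631 probes, several with 0 and none with 6842, and 3947 symbols were updated through synonyms in a RefSeq gene table of GRCm38.p6. The probe with the highest mean stood for a gene. Genes with a mean log2 intensity of at least 4.87, the median, were kept, which left 7020 of 14039. No difference was imputed for an empty cell.

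The fit was made with limma 3.58.1 in R 4.3.3 (lmFit with genotype and operation, eBayes with an intensity trend, Benjamini-Hochberg adjustment over 7020 genes). It was also run on simulated data, in which the true change of a gene was the same in both genotypes. That run could not show how unequal responses are handled. The limma fit takes the gap between the genotypes' responses as error, pooled over genes of like intensity. A gene with an unequal response was therefore not given a larger standard error. Other steps used Python 3.11.15 with numpy 2.4.6 and pandas 2.3.3.

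The lists, markers and rules were chosen with earlier results of these data known. Named by rule are Stim1, the 12 shared genes each way with the largest weaker difference, the 10 fitted genes with the largest mean, 8 that went opposite ways, 10 fixed markers and up to 4 members per list; the text prints part of them. Genes described so in the text were named after their values were seen. Alternatives were median centring, values as deposited, no filter, a 75th percentile filter, an offset of 5.49 before log2, the mean over probes, thresholds of 2-fold and 1.3-fold, fits without trend or genotype, and leaving out each genotype's pair, since without 1 array its pair gives no difference.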

Additional observations from a re-analysis of the deposited data

Results flagged for a closer look

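The response to TAC passed 1.5-fold in opposite directions in the 2 genotypes for 11 genes, of which the 8 with the largest weaker difference are given. With 1 array per group, the difference between the responses was not tested. Ttc13, a tetratricopeptide repeat gene, had a difference of -1.92 in WT and 1.07 in STIM1KO. Mrpl2, of the large mitochondrial ribosomal subunit, had -1.38 in WT and 1.26 in STIM1KO. Trim25, a ubiquitin ligase of antiviral signalling, had -1.25 and 0.84, and Ap3m1, of the AP-3 adaptor, had -1.07 and 0.61. Prdx5, a mitochondrial peroxiredoxin, had -0.91 and 0.61, and Icam2, an adhesion molecule of endothelium, -0.87 and 0.98. Arrdc2, an arrestin domain protein, had -0.68 and 1.39, and Sult1a1, a sulfotransferase, -0.61 and 1.19. All 8 were lower after TAC in WT and higher in STIM1KO. Their means over both genotypes ran from -0.43 for Ttc13 to 0.35 for Arrdc2. Myh7, also among the 11, went the other way, with 0.59 in WT and -0.59 in STIM1KO. The sham arrays of the 2 genotypes already differed in some genes, as in Mrpl2 (1369 in WT and 315 in STIM1KO). In others they were alike, as in Prdx5 (3855 and 3784).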

How the results depend on the processing

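Without a filter on dim genes 173 genes were higher and 149 lower in both genotypes and 183 went opposite ways, and 612 were higher and 572 lower by the mean. With a filter at the 75th percentile these numbers were 15, 7, 3, 44 and 38, and the limma fit called 48. At 2-fold in each genotype 3 genes were higher, 3 lower and 2 opposite, and at 1.3-fold 117, 179 and 69. A mean past 1.5-fold and larger than the gap gave 55 higher and 79 lower genes. With the offset before log2, 15 genes were lower in both and 6 opposite. Leaving out either genotype's pair moved the count by the mean between 109 and 513 higher and between 91 and 499 lower. The limma fit called 15 genes with values as deposited, 70 without the trend and 0 without the genotype term. Of the 52 shared genes, 44 were shared with median centring, 45 with values as deposited, 38 with the offset and 51 with the mean over probes, and 22 of 22 that were measured with the stricter filter. With values as deposited 39 genes were higher and 16 lower in both genotypes, against 29 and 23. Of 209 named genes, 24 lost their limma call with values as deposited. The losses were 6 without the filter, 4 with the offset and 3 with median centring. Most of the 209 had no such call to lose, so 209 is not the base of these losses. Over all genes the fit called 113 in the main setting, against the 15 with values as deposited. Camk2n1 reversed to 0.03 without the STIM1KO arrays and read -5.59 without the WT arrays. Leaving out single arrays was possible only as leaving out a genotype, since its other array then has no partner. Dim probes limit all counts: of the probes added without a filter, all lie below an intensity of 29.3 on average, and the cause of the higher counts there was not tested.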

Other observations

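Of 2117 probes without a gene symbol that passed the same brightness level, 15 were higher and 3 lower after TAC in both genotypes (0.85% the same way) and 8 went opposite ways (0.378%), against 0.741% and 0.157% of the named genes.

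Probes with empty cells were left out of all differences. Of these, 297 probes, 184 of them named, had a value on both TAC arrays and on neither sham array, with intensities up to 6.47, and 124, of which 74 were named, had the reverse pattern, up to 3.8. For comparison, 226 were valued on WT sham and STIM1KO TAC alone, 133 on WT TAC and STIM1KO sham alone, 183 on both STIM1KO arrays alone and 186 on both WT arrays alone. All of these intensities lie below the filter level of 29.3.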
